A study of Mus musculus with 4 samples.

Results

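Heat shock proteins and molecular chaperones, with the cytosolic chaperones at their centre, were examined in mouse embryonic stem (mES) cells depleted of the zinc finger protein Zfp322a. The set was a list of 49 genes, and a gene was measured where the array annotation gave a probe set with that single symbol. This list, its classes and the further lists below were chosen with earlier results of these data known, and their shares are description only. Of the 49 genes, 46 were measured, by 124 of the 45037 probe sets, and they stood among 18193 genes in all. For Hsf1, Hsp90ab1 and Ptges3 no probe set qualified in this way, and they were not analysed here. Hspa9, Trap1, Hspd1 and Hspe1 encode mitochondrial proteins and Hspa13 a protein of the endoplasmic reticulum (ER), so that the list reaches beyond the cytosol.

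The comparison asks which genes responded when Zfp322a mRNA was lowered, and it was made on 4 Affymetrix arrays, 1 per sample. The 2 Zfp322a RNAi samples were E14 cells, a mES cell line, transfected with an shRNA plasmid against Zfp322a. The 2 control RNAi samples were E14 cells transfected with the pSuper.puro vector. All 4 samples were grown with serum and leukaemia inhibitory factor (LIF), transfected with Lipofectamine and kept under puromycin selection, which lasted 3 days per the labels. The labels name no shRNA for the control, whereas the study's methods for the arrays speak of a control shRNA, and whether the control cells expressed an shRNA is thus unclear. No label says that the samples of a group were separate cultures, and the p-values then measure the spread between these samples, which may be technical. Values are log2 RMA levels of each gene's brightest probe set. Changes are Zfp322a RNAi minus control RNAi with the standard error from limma, and a gene was called higher or lower at an adjusted p under 0.05 over all 18193 genes. The number of arrays limits the precision.

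Zfp322a itself had log2 values of 7.53 and 7.13 on the Zfp322a RNAi arrays, against 8.75 and 8.84 on the control RNAi arrays (change -1.47 ± 0.14, adjusted p = 0.00158 with limma). The arrays correlated at 0.9975 within Zfp322a RNAi, at 0.9976 within control RNAi and at 0.9887 to 0.9900 across the groups. All 8 mES cell markers lay above the array medians on every array. Their summed level on the log2 scale was 15.69 in Zfp322a RNAi cells and 15.82 to 15.86 in control RNAi cells. Of these markers Esrrb, Tdgf1 and Utf1 fell (37.5%, against 14.4% of all genes). Pou5f1 (-0.055), Nanog (-0.025), Sox2 (0.015), Zfp42 (0.06) and Dppa5a (-0.16) were not called in either direction. Of 9 fibroblast or feeder cell markers measured, 3 lay above the medians on every array, 0 rose, and Thy1 and Pdgfrb fell. The part of these markers in the results was not tested. The summed level of the fibroblast markers on the log2 scale lay between 8.81 and 8.86 in Zfp322a RNAi cells and between 9.18 and 9.21 in control RNAi cells. In such bulk RNA a changed share of cells and a changed RNA level per cell cannot be told apart.

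Chaperones bind unfolded or newly made proteins and keep them from aggregating. HSP70 proteins bind short exposed stretches of a client under the control of ATP, HSP40 proteins deliver the client and stimulate the ATPase, and HSP110 and BAG proteins exchange the nucleotide. HSP90 and its co-chaperones act on later folding steps of kinases and receptors, and the ring-shaped chaperonins enclose a client. When unfolded proteins accumulate, heat shock factors (HSF) bind heat shock elements in promoters and raise transcription of the inducible genes. mES cells are known for high levels of several chaperones in the unstressed state.

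Heat shock protein and chaperone genes were more often higher than lower after Zfp322a depletion, and both directions occurred. Among the 46 measured genes there were 16 rises (34.8%), 5 falls (10.9%) and 25 genes without a call, where 14% of all genes rose and 14.4% fell. The median change of the 46 genes was 0.10, beside -0.04 over all genes. The inducible HSP70 genes rose most, followed by Hspa13, 2 of 3 HSP110 genes and most HSP40 genes, whereas Trap1, Hspa14 and 3 co-chaperones fell and no chaperonin subunit passed the test. Both Zfp322a RNAi arrays lay above both control RNAi arrays for 24 genes (52.2%, against 26.8% of all genes) and below them for 15 genes (32.6%, against 35.8%). By 1.5-fold change alone, the cut-off in the study's methods, 6 genes were higher (13.0%, against 5.05% of all genes) and 1 was lower (2.17%, against 3.20%). The remaining 44 genes without Hspa1a and Hspa1b had 14 rises and 5 falls and a median change of 0.08. With all 4 arrays, 27 of the 46 genes had an unadjusted p under 0.05 with limma, against 7184 of all 18193 genes. Without any 1 of the 4 arrays, the median change of the 46 genes lay between 0.065 and 0.145, against -0.06 to -0.02 over all genes. The calls were lost in these fits, for the 46 genes as for all genes. The 21 called genes kept their direction in each of these fits, which was fixed in advance because their groups did not overlap.

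**Figure D1:**
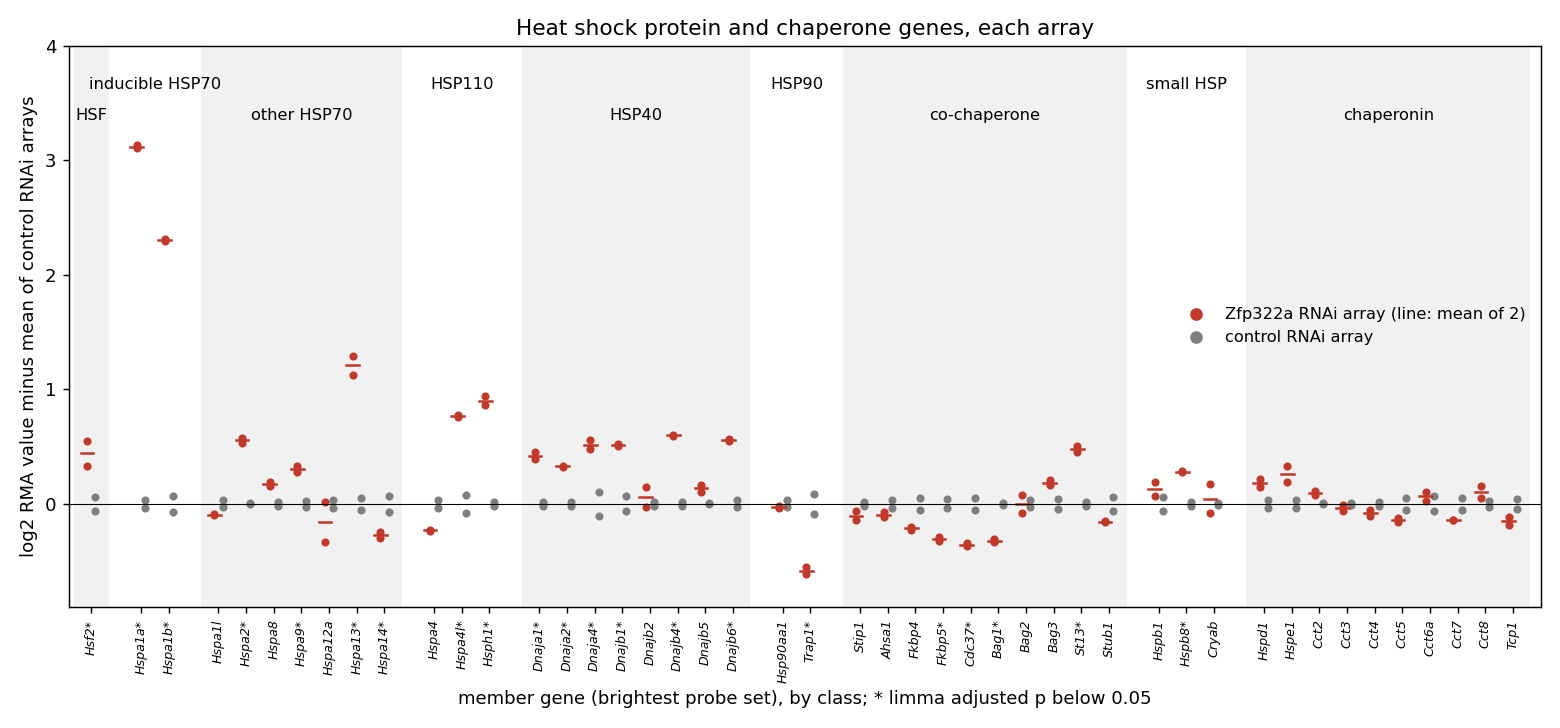
Log2 RMA values per array after subtracting the mean of both control RNAi arrays (y axis) for 46 heat shock protein and chaperone genes grouped by class (x axis). Red points are the 2 Zfp322a RNAi arrays with their mean as a line, grey points the 2 control RNAi arrays, and asterisks mark limma adjusted p below 0.05: Hspa1a stands highest at 3.12, 6 of 8 HSP40 genes lie between 0.33 and 0.60, and Trap1 lies lowest at -0.585.

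The inducible HSP70 genes Hspa1a and Hspa1b, which encode the stress-induced HSP70 of the cytosol, changed more than any other gene of the list. Hspa1a had log2 values of 11.46 and 11.43 on the Zfp322a RNAi arrays, against 8.29 and 8.36 on the control RNAi arrays. The arrays of each group lay within 0.1 of each other and the groups were far apart, a rise of 3.12 ± 0.07 or 8.69-fold (adjusted p = 1.93e-04 with limma). Hspa1b had 12.98 and 12.97 on the Zfp322a RNAi arrays, against 10.74 and 10.60 on the control RNAi arrays, a rise of 4.94-fold (2.305 ± 0.08, adjusted p = 2.71e-04 with limma). Both dimmer probe sets of Hspa1b rose further, by 2.885 and by 3.075 on the log2 scale, and the brightest probe set thus gave the smallest of its changes. The sequences of Hspa1a and Hspa1b are almost the same, a probe set of one may also read the other, and their values are uncertain as separate measurements.

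Hspa1b, Hspa1a and Hspa1l follow each other on chromosome 17 with no protein-coding gene between them in the RefSeq gene table of GRCm38.p6. Hspa1l, a testis-enriched HSP70 gene, had 3.89 and 3.90 on the Zfp322a RNAi arrays, against 3.96 and 4.02 on the control RNAi arrays, levels under the array medians of 6.07 to 6.11 (adjusted p = 0.361 with limma). The gene beside Hspa1a thus stayed dim in both groups. The promoters of Hspa1a and Hspa1b are shown because these genes led the rises. The 150 bases before the start are given from RefSeq (GRCm38.p6), with the matched units of a heat shock element in capitals:
Hspa1a, chr17:34972157-34972306, minus strand: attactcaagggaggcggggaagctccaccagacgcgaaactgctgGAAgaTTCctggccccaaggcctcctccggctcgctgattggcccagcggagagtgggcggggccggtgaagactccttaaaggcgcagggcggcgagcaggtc
Hspa1b, chr17:34959239-34959388, minus strand: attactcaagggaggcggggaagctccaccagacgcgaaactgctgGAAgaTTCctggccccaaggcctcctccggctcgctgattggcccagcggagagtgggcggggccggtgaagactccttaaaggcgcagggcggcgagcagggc
The stretches were identical at 149 of 150 positions, and each held 1 element, which began 104 bases before the start.

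Heat shock elements were searched as GAANNTTC or TTCNNGAA, each of which reads the same on both strands, in RefSeq windows of 250 bases before to 50 after each gene's start. A longer form added another unit of GAA or TTC after 2 free bases, and such a site also counts as overlapping short elements. RefSeq windows were matched for 40 of the 49 genes, 1 of them (Ptges3) not measured. At least 1 element was found for 18 of these 40 genes (45.0%), where 15.0% of array genes with a window and 17.0% of all genes with one held it. By response, an element was found for 8 of 13 genes that rose, 1 of 5 that fell and 9 of 21 that did not pass the test. Hspa1a and Hspa1b, whose bases before the start are nearly identical, each counted among the 8. The longer form was found for Hsph1, Dnajb6, Hspd1 and Hspe1, that is 4 of 40 genes (10.0%), beside 0.609% of array genes. Hspd1 and Hspe1 share the same stretch, and the longer form of Hsph1 lay after the start. With upstream bases only, the longer form was found for 3 of 40 genes (7.5%), beside 0.484% of array genes. Of these 4 genes Hsph1 and Dnajb6 rose, and the brightest probe sets of Hspd1 and Hspe1 did not pass the test. The sequence TATAAA on the sense strand was found for 1 of 40 genes, Stip1, beside 7.47% of array genes with a window. A match describes the letters of the window and not a bound site.

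The other HSP70 genes went apart. Hspa13, which encodes an HSP70-like ATPase associated with the ER, had 10.38 and 10.21 on the Zfp322a RNAi arrays, against 9.14 and 9.03 on the control RNAi arrays, and rose 2.31-fold (1.21 ± 0.09, adjusted p = 0.00108 with limma). All 3 dimmer probe sets of Hspa13 rose as well, by up to 1.55 on the log2 scale. Hspa2, best known from spermatogenesis, had 7.51 and 7.55 on the Zfp322a RNAi arrays, against 6.97 and 6.98 on the control RNAi arrays (0.555 ± 0.07, adjusted p = 0.00305 with limma). Its arrays hardly differed within a group, and the Zfp322a RNAi arrays lay above the control RNAi arrays, as for 26.8% of all genes. The mitochondrial HSP70 gene Hspa9 had 12.16 and 12.22 on the Zfp322a RNAi arrays, against 11.86 and 11.91 on the control RNAi arrays (0.305 ± 0.07, adjusted p = 0.0235 with limma). A second bright probe set, at a mean of 11.97, gave 0.19 and did not pass. Averaging its probe sets gave Hspa9 a change of 0.06, so that its rise is uncertain.

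Hspa8, the constitutive HSP70 of the cytosol, had 14.43 and 14.39 on the Zfp322a RNAi arrays, against 14.25 and 14.22 on the control RNAi arrays. The Zfp322a RNAi arrays lay above the control RNAi arrays, as for 26.8% of all genes. The difference of 0.175 ± 0.07 did not pass the test (adjusted p = 0.111 with limma). These values lay close to the highest value of any probe set, 14.61, and whether such bright probe sets understate a change was not tested. Another bright probe set gave 0.045 and a further one 0.105, both with overlapping arrays and without passing. The dimmest probe set of Hspa8 had 9.89 and 9.85 on the Zfp322a RNAi arrays, against 9.42 and 9.40 on the control RNAi arrays, and rose by 0.46 on the log2 scale (adjusted p = 0.0100 in the limma fit of probe sets). Hspa14, a ribosome-associated HSP70 gene, fell by 0.275 on the log2 scale (10.78 and 10.83 on the Zfp322a RNAi arrays, against 11.01 and 11.15 on the control RNAi arrays, adjusted p = 0.0477 with limma). The call of Hspa14 ended with array centring, with the replicate block and with its probe sets averaged (-0.03). In the limma fit of probe sets its brightest probe set did not pass (adjusted p = 0.0743). A dimmer probe set of Hspa14 passed there with a rise of 0.355 on the log2 scale (adjusted p = 0.0247). Hspa12a, a distant HSP70 relative, had overlapping arrays (-0.16 ± 0.12).

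The HSP110 genes, whose proteins act as nucleotide exchange factors of HSP70, included 2 of the clearest rises. Hsph1 had 12.33 and 12.41 on the Zfp322a RNAi arrays, against 11.45 and 11.49 on the control RNAi arrays, and rose 1.87-fold (0.90 ± 0.07, adjusted p = 0.00117 with limma). Its other probe set had 11.65 and 11.64 on the Zfp322a RNAi arrays, against 10.37 and 10.37 on the control RNAi arrays. Hspa4l had 8.18 and 8.20 on the Zfp322a RNAi arrays, against 7.34 and 7.50 on the control RNAi arrays, and rose 1.71-fold (0.77 ± 0.08, adjusted p = 0.00211 with limma). All 4 dimmer probe sets of Hspa4l rose as well, by 0.635 to 1.19 on the log2 scale. The constitutive Hspa4 lay on the other side, with 12.72 and 12.73 on the Zfp322a RNAi arrays, against 12.92 and 12.99 on the control RNAi arrays, and just missed the threshold (-0.23 ± 0.07, adjusted p = 0.0549 with limma).

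The heat shock factor gene measured from the list, Hsf2, whose product binds heat shock elements and acts in development and stress, was higher as well. It had 8.49 and 8.27 on the Zfp322a RNAi arrays, against 8.00 and 7.88 on the control RNAi arrays, and rose 1.36-fold (0.44 ± 0.10, adjusted p = 0.0218 with limma). A dimmer probe set of Hsf2 had overlapping arrays (-0.285 ± 0.20), and with the mean of both the change was 0.08, which ended the call.

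HSP40 genes, the J-domain partners of HSP70, mostly rose. There were 6 rises and 0 falls among the 8 measured, where 14% of all genes rose and 14.4% fell. All 8 changes lay above 0, as did 7615 of the 18193 over all genes. Their median was 0.47, beside -0.04 over all genes. Dnajb4 had 7.46 and 7.45 on the Zfp322a RNAi arrays, against 6.84 and 6.87 on the control RNAi arrays (0.60 ± 0.07, adjusted p = 0.00244 with limma). Dnajb6, a suppressor of aggregation, had 11.68 and 11.66 on the Zfp322a RNAi arrays, against 11.08 and 11.14 on the control RNAi arrays (0.56 ± 0.07, adjusted p = 0.00316 with limma). Dnajb1, the classical heat-inducible HSP40, had 11.58 and 11.60 on the Zfp322a RNAi arrays, against 11.01 and 11.14 on the control RNAi arrays (0.515 ± 0.08, adjusted p = 0.00558 with limma). In these 3 genes the groups were separated by several times the gap between replicate arrays. Dnajb1 held no element in its windows, whereas the promoter of Dnajb6 is shown because it held the longer form, which began 46 bases before the start in this window:
Dnajb6, chr5:29735748-29735897, plus strand: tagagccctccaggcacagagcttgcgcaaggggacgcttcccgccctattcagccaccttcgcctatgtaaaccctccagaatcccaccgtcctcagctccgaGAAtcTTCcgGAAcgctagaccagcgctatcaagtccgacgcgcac

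The other rises among HSP40 genes were those of the A subfamily. Dnaja4 had 7.07 and 7.15 on the Zfp322a RNAi arrays, against 6.49 and 6.70 on the control RNAi arrays (0.515 ± 0.09, adjusted p = 0.0106 with limma). Dnaja1 had 12.97 and 13.03 on the Zfp322a RNAi arrays, against 12.56 and 12.60 on the control RNAi arrays (0.42 ± 0.07, adjusted p = 0.00794 with limma), and a dimmer probe set rose by 0.805 on the log2 scale. Dnaja2 had 12.79 and 12.78 on the Zfp322a RNAi arrays, against 12.44 and 12.47 on the control RNAi arrays (0.33 ± 0.07, adjusted p = 0.0155 with limma). Both Zfp322a RNAi arrays lay above both control RNAi arrays in these 3 genes, as for 26.8% of all genes. Among dimmer probe sets of Dnaja2, however, 1 rose by 0.39 and 1 fell by 0.28 on the log2 scale. With probe sets averaged the calls of Dnaja2 (0.13) and Dnajb6 (0.21) ended, and the rise of Dnajb4 was 0.33. Dnajb2 (0.06 ± 0.08) and Dnajb5 (0.135 ± 0.07) did not pass the test.

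Of the HSP90 genes, 2 of the list were measured, Hsp90aa1 and Trap1. Hsp90aa1, the stress-responsive cytosolic HSP90, had 14.20 and 14.18 on the Zfp322a RNAi arrays, against 14.25 and 14.19 on the control RNAi arrays. The arrays overlapped and no difference was detected (-0.03 ± 0.07, 95% confidence interval -0.20 to 0.14, adjusted p = 0.786 with limma). Its other bright probe sets gave 0.13 and 0.065 without passing the test. The first of these had 14.16 and 14.14 on the Zfp322a RNAi arrays, against 14.03 and 14.01 on the control RNAi arrays, without overlap. As for Hspa8, these values lay close to the highest value of any probe set, 14.61. Whether such bright probe sets understate a change was not tested. Trap1, the mitochondrial HSP90, had 9.91 and 9.97 on the Zfp322a RNAi arrays, against 10.44 and 10.61 on the control RNAi arrays. It fell to 66.7% of the control level (-0.585 ± 0.08, adjusted p = 0.00513 with limma), which put it at the edge of the 1.5-fold rule. The other probe set of Trap1 fell too (-0.465 ± 0.09). Hsp90b1, the HSP90 of the ER and not a gene of the list, had 13.10 and 12.88 on the Zfp322a RNAi arrays, against 12.68 and 12.49 on the control RNAi arrays, and rose (0.405 ± 0.11, adjusted p = 0.0375 with limma).

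Among the 10 co-chaperones of HSP90 and HSP70 measured there were 1 rise (10%, against 14% of all genes) and 3 falls (30%, against 14.4%). Their median change was -0.13. Both Zfp322a RNAi arrays lay below both control RNAi arrays for 7 of them (70%, against 35.8% of all genes) and above them for 2 (20%, against 26.8%). Cdc37, which brings kinases to HSP90, had 10.36 and 10.34 on the Zfp322a RNAi arrays, against 10.65 and 10.76 on the control RNAi arrays (-0.355 ± 0.07, adjusted p = 0.0169 with limma). Bag1, a nucleotide exchange factor of HSP70, had 10.77 and 10.75 on the Zfp322a RNAi arrays, against 11.07 and 11.09 on the control RNAi arrays (-0.32 ± 0.07, adjusted p = 0.0171 with limma). Fkbp5, an immunophilin of steroid receptor complexes, had 10.62 and 10.59 on the Zfp322a RNAi arrays, against 10.87 and 10.95 on the control RNAi arrays (-0.305 ± 0.07, adjusted p = 0.0242 with limma). The falls were small, and both Zfp322a RNAi arrays lay below both control RNAi arrays, as for 35.8% of all genes. The call of Fkbp5 ended with its probe sets averaged (-0.15).

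St13, which encodes the HSP70-interacting protein Hip, was the co-chaperone gene that rose. It had 12.63 and 12.68 on the Zfp322a RNAi arrays, against 12.16 and 12.19 on the control RNAi arrays (0.48 ± 0.07, adjusted p = 0.00486 with limma). With the mean of its 3 probe sets the change was 0.29. The stress-inducible Bag3 had 9.24 and 9.28 on the Zfp322a RNAi arrays, against 9.03 and 9.12 on the control RNAi arrays, and did not pass the test (0.185 ± 0.07, adjusted p = 0.113 with limma). Stip1, which links HSP70 to HSP90, the HSP90 activator gene Ahsa1, Fkbp4, Bag2 and the ubiquitin ligase gene Stub1 had changes between -0.215 and 0 and did not pass either.

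Of the 3 small HSP genes of the list, whose products hold unfolded proteins without ATP, Hspb8 passed the test. It had 9.26 and 9.25 on the Zfp322a RNAi arrays, against 8.99 and 8.96 on the control RNAi arrays (0.28 ± 0.07, adjusted p = 0.0265 with limma), and averaging its probe sets ended the call (0.24). Hspb1, the heat-inducible HSP27 of human cells, had 13.47 and 13.59 on the Zfp322a RNAi arrays, against 13.34 and 13.46 on the control RNAi arrays, so that the nearest arrays of the groups lay closer together than the replicates of either group (0.13 ± 0.08, adjusted p = 0.303 with limma). Cryab had overlapping arrays (0.045 ± 0.10). The promoter of Hspb1 is shown because it held 2 elements, the first of them 117 bases before the start, in a gene for which no difference was detected:
Hspb1, chr5:135887769-135887918, plus strand: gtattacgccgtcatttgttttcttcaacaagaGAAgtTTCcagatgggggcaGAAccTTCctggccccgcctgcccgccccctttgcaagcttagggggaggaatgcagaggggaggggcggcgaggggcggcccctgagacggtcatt

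Of 10 chaperonin genes, 0 passed the test with limma, where 14% of all genes rose and 14.4% fell. TRiC, the cytosolic chaperonin that folds actin and tubulin, has 8 subunit genes on the list (Tcp1, Cct2, Cct3, Cct4, Cct5, Cct6a, Cct7 and Cct8), and their changes lay between -0.15 for Tcp1 and 0.105 for Cct8, and their 95% confidence intervals between -0.33 and 0.29. Tcp1 had 12.59 and 12.66 on the Zfp322a RNAi arrays, against 12.73 and 12.82 on the control RNAi arrays. All 8 subunits were bright, at log2 means over 12, and the groups differed by less than 0.2. With a variance trend, Tcp1 (adjusted p = 0.0300), Cct7 (0.0314) and Cct5 (0.0348) were called lower.

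The mitochondrial chaperonin genes had changes above 0 without a call. Hspe1, which encodes HSP10, had 13.33 and 13.19 on the Zfp322a RNAi arrays, against 13.03 and 12.96 on the control RNAi arrays (0.265 ± 0.08, adjusted p = 0.0561 with limma). Hspd1, which encodes HSP60, had 13.25 and 13.32 on the Zfp322a RNAi arrays, against 13.07 and 13.14 on the control RNAi arrays (0.18 ± 0.07, adjusted p = 0.121 with limma). Both genes missed the threshold, and their Zfp322a RNAi arrays lay above their control RNAi arrays, as for 26.8% of all genes. A dimmer probe set of Hspe1 passed it (0.375 ± 0.08, adjusted p = 0.0194 in the limma fit of probe sets), and Hspe1 passed under 5 alternatives, with adjusted p of 0.00207 (variance trend) to 0.0425 (array centring). Hspd1 passed with dim genes left out (adjusted p = 0.0355) and with a variance trend (adjusted p = 0.00861). The pair lies side by side on chromosome 1 and is transcribed in opposite directions, with windows that share 285 bases. The promoter is shown from the side of Hspe1 because its elements form the longer form, 89 bases before the start, in a pair whose brightest probe sets did not pass the test:
Hspe1, chr1:55087998-55088147, plus strand: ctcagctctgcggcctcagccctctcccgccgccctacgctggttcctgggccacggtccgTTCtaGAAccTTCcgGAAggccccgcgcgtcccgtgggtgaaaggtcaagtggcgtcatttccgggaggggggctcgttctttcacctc

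The calls above rest on 1 probe set per gene, and all probe sets were therefore fitted as well. Of 124 probe sets of the 46 genes, 39 rose (31.5%, against 10.6% of all probe sets) and 8 fell (6.45%, against 9.47%), with limma over all 45037 probe sets. Among the 21 called genes, 18 had further probe sets, and for 12 of these another one passed in the same direction. For 2 of them, Dnaja2 and Hspa14, another one passed in the opposite direction. The brightest probe set of Hspa14 did not itself pass in this fit. Of the 38 further probe sets of called genes, 18 passed in the same direction, 2 in the opposite direction and 18 did not pass.

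**Figure D2:**
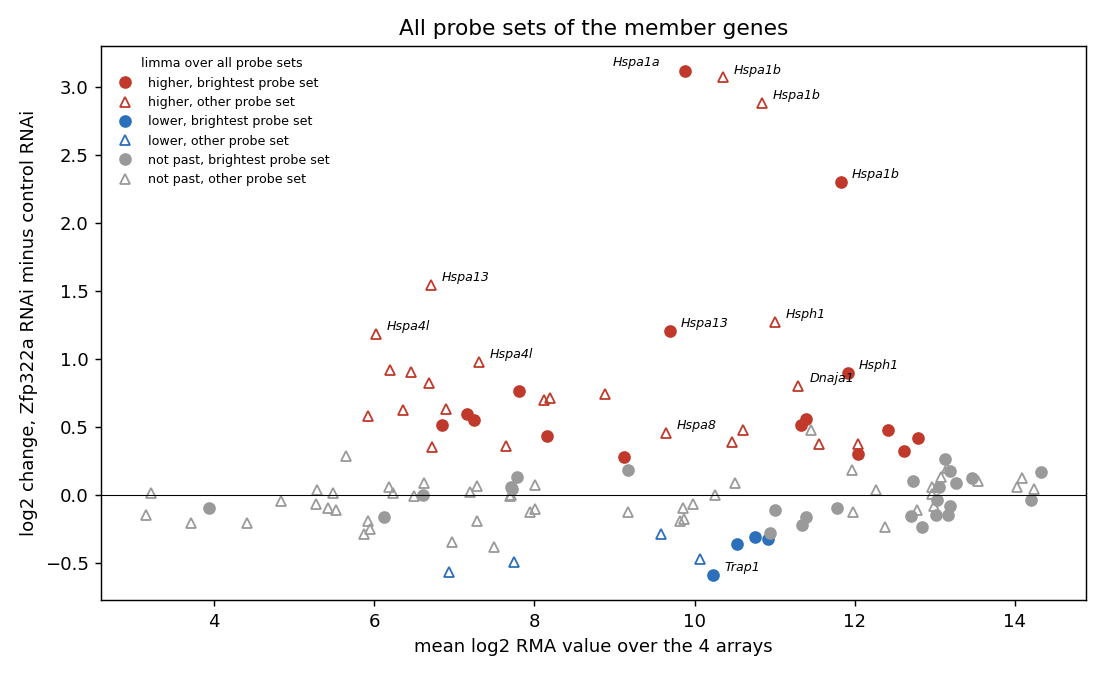
Each point is 1 of 124 probe sets of the heat shock protein and chaperone genes, placed by its average log2 RMA level on all 4 arrays (x axis) and by its log2 difference, Zfp322a RNAi minus control RNAi (y axis). Red and blue mark 39 higher and 8 lower probe sets (limma over all probe sets), filled circles the brightest probe set of a gene and open triangles the others: the Hspa1a and Hspa1b probe sets lie between 2.305 and 3.12, and the brightest points, past 14, lie near 0.

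Genes outside the list, taken as HSF regulators or other heat shock targets, were set beside it. Of 8 measured HSF regulators and other heat shock targets, 4 rose (50%, against 14% of all genes) and 0 fell. Hmox1, the haem oxygenase gene, rose by 2.45 ± 0.08, Zfand2a, an arsenite- and heat-induced gene, by 1.27 ± 0.07, and the collagen chaperone gene Serpinh1 by 0.965 ± 0.09 (limma, adjusted p under 0.05 for each). Zfand2a had 9.84 and 9.83 on the Zfp322a RNAi arrays, against 8.55 and 8.58 on the control RNAi arrays. Its replicate arrays lay as close together as those of Hspa1a, but its groups lay less far apart. Hikeshi, which carries HSP70 into the nucleus, rose by 0.40 ± 0.07. Hsbp1, a negative regulator of HSF1, had overlapping arrays (0.07 ± 0.08). Sqstm1 (0.125 ± 0.09), Dedd2 (-0.085 ± 0.07) and Hsf4 (-0.145 ± 0.07) did not pass the test either. Whether heat shock factors took part in the rises was not tested.

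Further J-domain genes were mixed. There were 6 rises (21.4%, against 14% of all genes) and 2 falls (7.14%, against 14.4%) among 28 measured, with a median change of 0. Dnajc12 (0.525 ± 0.07), Dnajc27 (0.44 ± 0.10) and Dnajc24 (0.425 ± 0.07) led the rises, while Dnajc21 (-0.385 ± 0.07) and Dnajc4 (-0.37 ± 0.07) fell. Of 17 further co-chaperones of HSP90 and HSP70, 3 rose and 3 fell (17.6% each, near the shares of all genes), with rises of Cacybp (0.45 ± 0.07), Cdc37l1 (0.405 ± 0.07) and Chordc1 (0.35 ± 0.07) and falls of Sgta (-0.31 ± 0.07), Hspbp1 (-0.305 ± 0.07) and Unc45a (-0.26 ± 0.07). Prefoldin, which passes actin and tubulin to TRiC, had 2 rises, Pfdn4 (0.645 ± 0.07) and Vbp1 (0.345 ± 0.07), and 2 falls, Pfdn6 (-0.41 ± 0.07) and Pfdn1 (-0.29 ± 0.07), among 6 subunits (33.3% each). Of 7 further genes listed as small HSP, Hspb11 (0.43 ± 0.07) and Hspb6 (0.40 ± 0.11) rose (28.6%) and Hspb2 (-0.615 ± 0.07) fell (14.3%). Hspb2 lies beside Cryab on chromosome 9, and Cryab itself did not pass the test.

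Chaperones of other compartments differed from each other in their counts. Among 18 measured ER chaperone genes there were 14 rises (77.8%, against 14% of all genes) and 1 fall (5.56%, against 14.4%). Their median change was 0.45, beside -0.04 over all genes. Pdia4 (0.82 ± 0.07), Dnajb9 (0.775 ± 0.07) and Dnajc3 (0.68 ± 0.09) led these rises, and Sil1 (-0.34 ± 0.10) fell. Of 10 mitochondrial chaperones and proteases, 1 rose (10.0%, against 14% of all genes) and 3 fell (30.0%, against 14.4%). The protease gene Lonp1 (-0.52 ± 0.08) fell most. ER chaperone genes thus rose in a larger share (77.8%) than the 46 genes of the list (34.8%), but the difference between the lists was not tested.

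**Figure D3:**
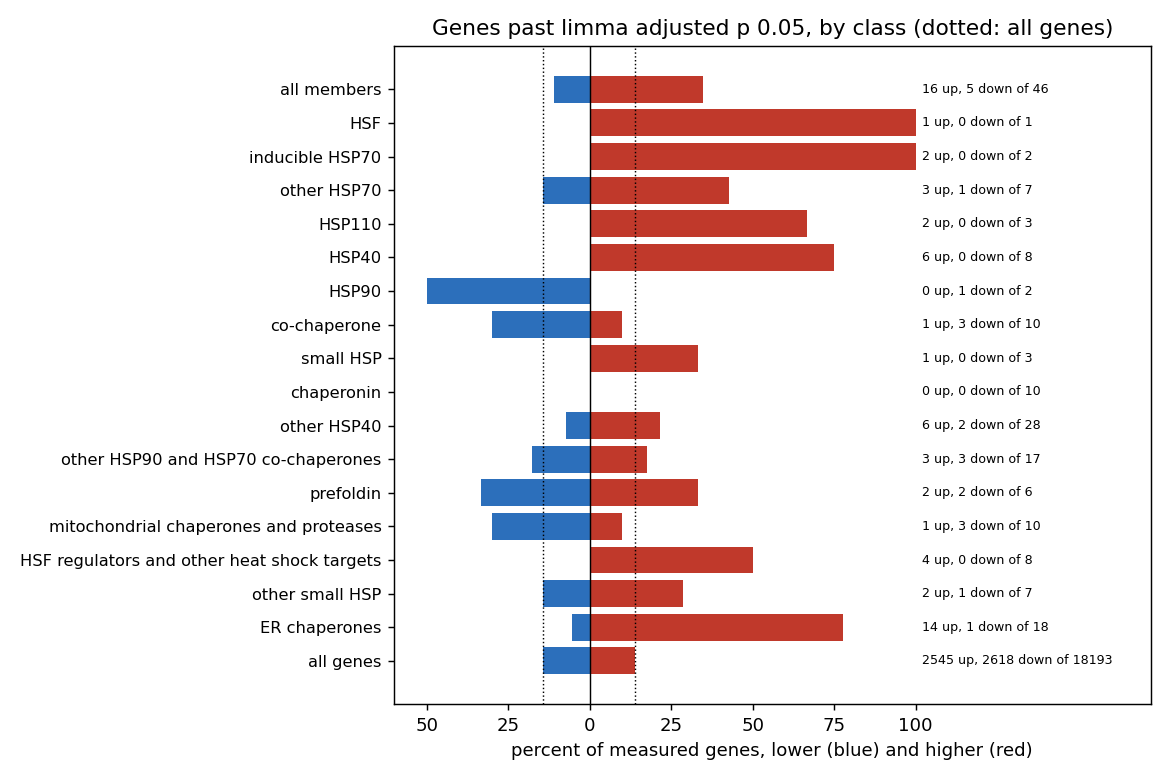
Percent of measured genes (x axis) higher in Zfp322a RNAi cells (red, right of 0) and lower (blue, left of 0) with limma adjusted p under 0.05, for the 46 heat shock protein and chaperone genes, their classes, lists of related genes and all genes (y axis). Dotted lines mark all genes at 14% and 14.4%: 6 of 8 HSP40 genes and 14 of 18 ER chaperone genes were higher, and 0 of 10 chaperonin genes passed in either direction.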

How the data were processed

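RNA of 4 samples was measured on 1-colour Affymetrix mouse genome arrays. The authors processed the arrays with RMA (background correction, quantile normalization and probe set summary; version not given in the sources used here), and the deposited log2 values, given to 2 decimals, were used as they are. RMA forces the same distribution on every array, which would hide a change shared by all genes. Values ran between 2.62 and 14.61, the range of log2 data, and no centring of genes is stated. The labels give puromycin selection as 3 days, which the study's methods put longer for these samples.

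Groups and replicate numbers came from the sample titles. Of 45037 probe sets, 34945 had 1 gene symbol, 932 several and 9160 none. Only the first were named, with 34741 matched by Entrez ID to RefSeq symbols (GRCm38.p6). For each of 18193 genes the brightest probe set over all 4 arrays was taken, with no filter on dim genes. Zfp322a RNAi was compared with control RNAi by limma 3.58.1 in R 4.3.3 (a model with the group alone, lmFit with eBayes, two-sided, Benjamini-Hochberg adjustment over all genes, threshold 0.05). The same fit over all probe sets served for single probe sets. The smallest p an exact permutation test allows here is 0.333. The procedure was tested on simulated data. The members, classes and further lists were chosen with earlier results of these data known. Lists were described by counts and medians with no test. Values per array are printed for called members and for leading members without a call, and from the further lists at most 3 called genes per direction with the largest changes are named; other named genes were chosen after their values were seen. A planned comparison of protein sequences was not run. Alternatives were array centring, renewed quantile normalization, a filter on dim genes, other probe set choices, a variance trend, a 1.5-fold rule, a replicate block and leaving out each array.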

Additional observations from a re-analysis of the deposited data

How the results depend on the processing

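The count of higher members, 16 of 46, lay between 12 and 20 with array centring, renewed quantile normalization, a filter on dim genes, averaged probe sets, a filter on probe sets that may cross-hybridize, a variance trend or the replicate block, and the count of lower members, 5, between 4 and 7 with the first 5 of these. With a variance trend 11 members were lower. Of the members without a call, Hspa8, Hspa4, Fkbp4, Bag3, Hspd1 and Hspe1 passed both with the filter on dim genes and with a variance trend, in the direction printed. With the 1.5-fold rule, 6 members were higher and 1 was lower, both without a test and together with the adjusted p; over all genes it gave 919 higher and 582 lower without a test, and 915 and 579 with it. Without any 1 array, 0 members and 0 genes were called in either direction with limma (1 residual degree of freedom), and an unadjusted p under 0.05 was found for 5147 to 5768 genes. The lowest adjusted p among members then lay between 0.0793 and 0.0966. No called member changed direction under any alternative run. For the fits without 1 array this was fixed in advance, because the groups of each called member did not overlap.

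Same-numbered samples did not deviate together (r = 0.04 over 18193 genes between Zfp322a RNAi replicate 1 and control RNAi replicate 1), so that the replicate block rests on a shared number only. With the replicate block 13 members were higher and 1, Trap1, was lower, and 1493 genes were higher and 1163 lower, against 2545 and 2618 without it. The share of members with a heat shock element was 37.5% with upstream bases only, against 45.0%. The cause of these differences was not tested.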

Other observations

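Some dim probe sets of TRiC subunit genes moved apart from the bright ones. For Cct4, 2 dim probe sets, at mean log2 values of 6.69 and 8.12, rose by 0.825 and by 0.705 on the log2 scale (adjusted p = 0.00384 and 0.00372 in the limma fit of probe sets), while the brightest gave -0.08. For Cct3, a probe set at 6.37 rose by 0.63 (adjusted p = 0.00751 in the same fit), while the brightest, at 13.03, gave -0.035. For these 3 probe sets every Zfp322a RNAi array lay above every control RNAi array. They were picked after their values were seen, and which transcripts they detect was not tested.

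Dim probe sets of Hspa4 and Fkbp4 moved downward. A probe set of Hspa4 had 7.59 and 7.41 on the Zfp322a RNAi arrays, against 7.86 and 8.12 on the control RNAi arrays, and fell by 0.49 on the log2 scale (adjusted p = 0.0335 in the limma fit of probe sets). A probe set of Fkbp4 had 6.65 and 6.66 on the Zfp322a RNAi arrays, against 7.41 and 7.03 on the control RNAi arrays, and fell by 0.565 on the log2 scale (adjusted p = 0.0310 in the limma fit of probe sets). Their brightest probe sets did not pass the test, with changes in the same direction.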
